A study of Mus musculus with 4 samples.

Results

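A panel of 30 genes that are linked, like Setd5 itself, with autism or intellectual disability when 1 copy is lost or altered was followed in single cells of the fetal mouse cortex. The members were taken by gene symbol from a fixed list, and all 30 were among the 16600 genes of the deposited table. They fall by known role into 8 chromatin remodellers and readers (Chd8, Chd2, Arid1b, Adnp, Pogz, Ankrd11, Phf21a and Ctcf), 3 histone or DNA methylation enzymes (Kdm5b, Kdm6b and Dnmt3a), 7 transcription factors and coregulators (Tcf4, Tcf20, Bcl11a, Myt1l, Auts2, Med13l and Ctnnb1), 3 ubiquitin pathway genes (Cul3, Trip12 and Wac), 4 kinase and growth signalling genes (Dyrk1a, Tsc1, Tsc2 and Nf1), 2 genes of RNA silencing and translation (Gigyf1 and Tnrc6b) and 3 synapse and cytoskeleton genes (Shank2, Shank3 and Katnal2). Cells came from the cortex of C57BL/6J fetuses at E18.5, 2 of them Setd5+/+ (libraries WT3 and WT6) and 2 Setd5+/- (libraries Het5 and Het9). The Setd5+/- fetuses carry 1 Setd5 GFP allele, which serves as a heterozygous knockout, and the Setd5+/+ fetuses carry none. Live cells that were CD24+ and CD45- (a pan-neuronal surface marker present and a hematopoietic one absent) were sorted, and each fetus gave 1 droplet library tagged near the end of each transcript with a unique molecular identifier (UMI). The comparisons ask in which cell type each gene is most highly expressed at this stage, and whether loss of 1 Setd5 copy goes with another level of it.

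Many of these genes encode nuclear proteins that set which genes a neural cell can transcribe. Remodellers such as Chd8 and the Arid1b subunit of the BAF complex shift nucleosomes, Kdm5b and Kdm6b remove methyl groups from histones, and Dnmt3a adds them to DNA. Tcf4, Bcl11a and Myt1l bind DNA and act during neuronal specification and maturation. Other members act outside transcription, in protein turnover, growth control through the TSC and Ras pathways, mRNA repression or the postsynaptic density.

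The table held 6562 cells, 1445 to 1954 per library, with 8205330 to 11742956 UMIs per library and a median of 5398 to 5997 UMIs per cell. Levels are given as counts per 10000, the mean over cells of the UMIs of a gene per 10000 UMIs of the cell. Setd5, the targeted gene, stood at 1.18 and 1.07 in the Setd5+/+ libraries and at 0.540 and 0.586 in the Setd5+/- libraries. The Setd5+/- mean was thus 49.9% of the Setd5+/+ mean, without overlap (log2 difference -0.89, limma adjusted p = 0.00696). Cd24a was between 12.2 and 14.2 counts per 10000 in every library, and Ptprc, which encodes CD45, between 0.0733 and 0.161. Xist, transcribed from the inactive X chromosome, was at 20.6 and 21.5 in the Setd5+/+ libraries against 0.152 and 0.310 in the Setd5+/- libraries, and the Y-linked Ddx3y at 0 and 0.000602 against 0.492 and 0.465. Sex and genotype therefore cannot be told apart here, although none of the 30 members lies on X or Y. Barcodes of 277 cells occurred in more than 1 library, 224 of them in all 4, and 140 of the 147 melanocyte-like cells and 84 of the 132 immune cell-like cells belonged to the latter.

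Before the values, the sequence upstream of 3 members is shown, to set beside their levels below. Ctcf and Myt1l each had the same highest cluster in 4 of 4 libraries. Dnmt3a had the largest estimated difference between genotypes of the tested members, which was not called (limma adjusted p = 0.994). Phf21a also had 1 highest cluster in 4 of 4 libraries, but its window touches an exon of its own and is not shown. Each line gives the 250 bases before the outermost RefSeq transcription start (build GRCm38.p6, plus strand), with E-box letters (CANNTG, which reads the same on both strands) in capitals. The E-box is the core bound by basic helix-loop-helix proteins such as Tcf4. The Ctcf window is chr8:105636288-105636537, the Dnmt3a window chr12:3806730-3806979 and the Myt1l window chr12:29528134-29528383.
Ctcf: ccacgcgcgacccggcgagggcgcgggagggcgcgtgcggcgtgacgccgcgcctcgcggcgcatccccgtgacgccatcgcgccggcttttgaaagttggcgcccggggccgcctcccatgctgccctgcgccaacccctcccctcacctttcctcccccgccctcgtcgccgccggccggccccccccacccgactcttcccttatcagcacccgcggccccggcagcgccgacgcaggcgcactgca
Dnmt3a: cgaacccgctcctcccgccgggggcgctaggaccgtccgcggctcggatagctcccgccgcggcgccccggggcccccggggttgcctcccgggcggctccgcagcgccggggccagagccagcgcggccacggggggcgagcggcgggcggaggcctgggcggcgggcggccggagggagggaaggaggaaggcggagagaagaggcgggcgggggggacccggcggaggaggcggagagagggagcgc
Myt1l: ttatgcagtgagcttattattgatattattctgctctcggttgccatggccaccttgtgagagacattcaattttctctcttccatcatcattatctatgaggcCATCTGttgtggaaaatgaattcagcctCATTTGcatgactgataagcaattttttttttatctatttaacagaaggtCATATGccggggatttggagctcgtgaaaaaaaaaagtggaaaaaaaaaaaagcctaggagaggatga

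No E-box letters were found in the Ctcf and Dnmt3a windows, and 3 matches stood in the Myt1l window. Windows on chromosome 18, where Tcf4, Wac and Katnal2 lie, were left out of all counts here. Of the 32851 other upstream windows of the same length in the RefSeq table, 66.2% hold CANNTG. One of the Myt1l matches reads CATCTG, a form that overlaps CANNTG and is found on either strand of 14.4% of all windows. CG pairs numbered 40 in the Ctcf window, 38 in the Dnmt3a window and 3 in the Myt1l window, against a median of 6.00 over all windows. Over the members listed, the median was 23.0 CG pairs and 69.2% G or C, so CG-rich windows were usual among them, and the Myt1l window held 36.8% G or C. The 4 further RefSeq starts of Myt1l have windows with 43.6% to 59.2% G or C and 0 to 3 E-boxes, and of the 3 listed for Dnmt3a the third holds 1. Outside chromosome 18, the table listed 23 of the 30 members, and 9 of these 23 held CANNTG before their outermost start. The Dnmt3a window lies inside the Dnmt3a gene of GENCODE M21, which starts at 3806007, and touches no annotated exon. Upstream of the Myt1l start, GENCODE M21 annotates an exon of the noncoding gene Gm20208 and no exon of Myt1l.

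To place the genes, the cells were clustered without the members, their partner genes and Setd5, which gave 14 clusters numbered by size. From markers, cluster 0 was excitatory neuron-like (Cntn2, Bhlhe22), 2 cycling (Top2a), 3 radial glia-like (Aldoc, Fabp7), 4 migrating interneuron-like (Npy, Lhx6), 6 intermediate progenitor-like (Neurog2, Eomes), 7 interneuron or subpallial progenitor-like (Gsx1), 8 striatal neuron-like (Ebf1, Isl1), 11 melanocyte-like, 12 immune cell-like and 13 Cajal-Retzius cell or cortical hem-like. Clusters 1 (led by Cxcl12 and Cdh8), 5 (Tac2 and Synpr), 9 (Hells and E2f1) and 10 (Tfap2d and Thsd7a) stayed unnamed. Excitatory neuron markers summed to 38.5 in cluster 10 against 17.9 in all other cells, and to 28.2 against 16.4 for cluster 1. Intermediate progenitor markers summed to 16.7 against 7.94 for cluster 1. In cluster 5 they were at 23.5 against 8.21, with excitatory neuron markers at 23.8 against 17.9. Cluster 7 also held S phase markers, 2 of 8 among its 10 leading genes, as many as markers of its name, with a summed level of 18.9 against 4.26 in all other cells. Cluster 2 also held interneuron or subpallial progenitor markers, at a summed level of 29.9 against 7.05. Cluster 9 held cycling markers at 21.7 against 7.75 and S phase markers at 17.3 against 4.83. Its intermediate progenitor markers were at 18.7 against 9.14. Below, cycling cells means cluster 2 only. Cluster 13 held 35 cells, under 20 in each library, and was not ranked. Since the clusters come from the same cells, levels between clusters are a description, with the SD over 4 libraries and no test.

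**Figure D1:**
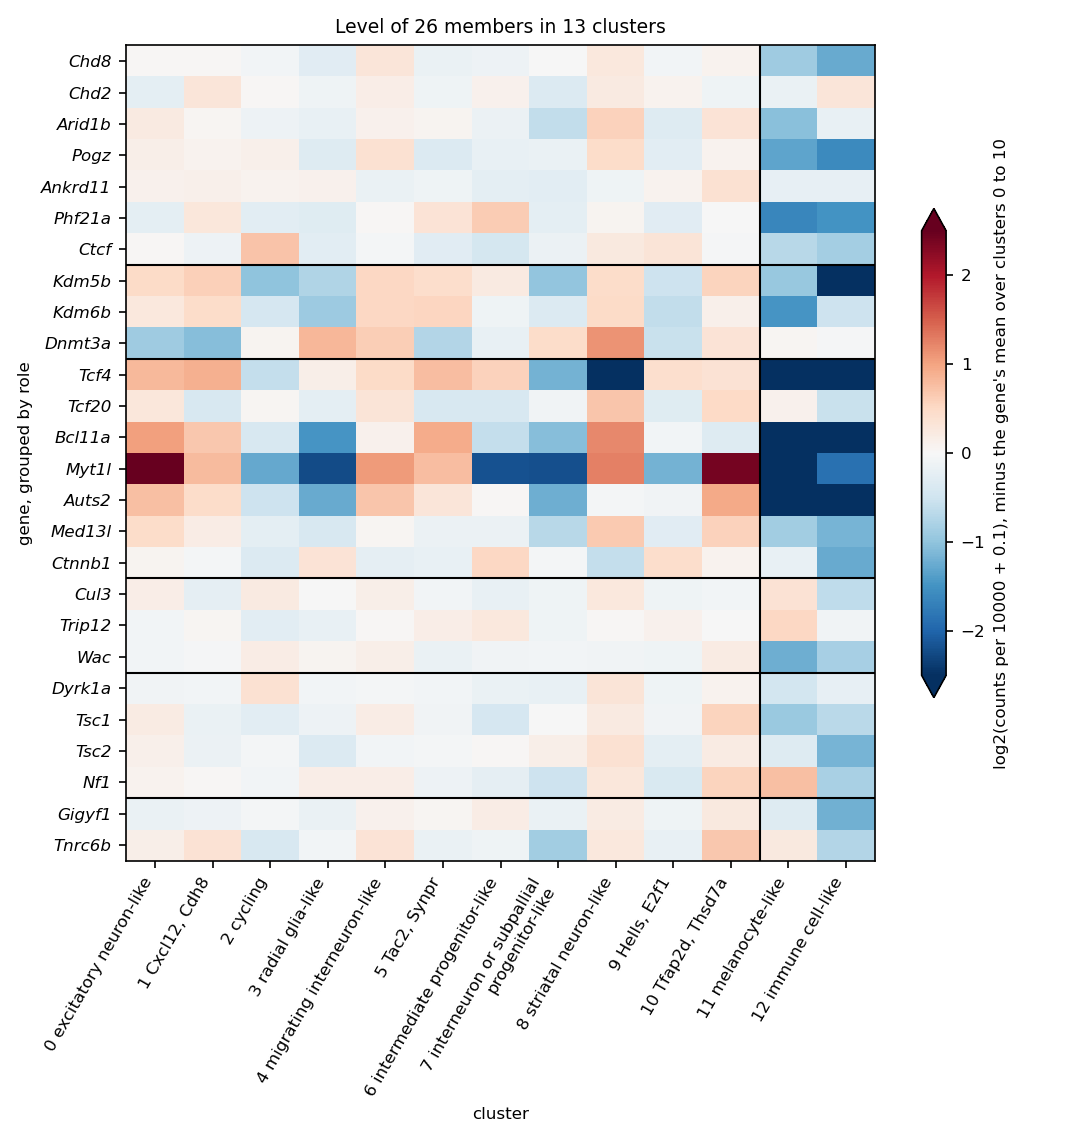
Level of the 26 members above the filter (rows, by role) in 13 clusters (columns), as log2(counts per 10000 + 0.1) minus the gene's own mean over clusters 0 to 10, with red above and blue below that mean. Myt1l, Tcf4, Bcl11a, Auts2 and Dnmt3a span the most colour over clusters 0 to 10, and Wac and Gigyf1 the least. Colours saturate at 2.5, and the vertical line sets off the non-neural clusters 11 and 12.

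The members that varied most between cell types were 4 of the 7 transcription factors and coregulators. Over the neural clusters 0 to 10, the log2 range from the lowest to the highest cluster was 5.05 for Myt1l, 3.56 for Tcf4, 2.67 for Bcl11a and 2.21 for Auts2, and the DNA methyltransferase Dnmt3a followed at 2.18. The other 3 genes of that role, Med13l, Ctnnb1 and Tcf20, had ranges of 1.35, 1.13 and 1.09, below those of Kdm5b at 1.59, Tnrc6b at 1.54 and Kdm6b at 1.43. At the other end stood Wac at 0.37, the translational repressor Gigyf1 at 0.41, the ubiquitin ligase scaffold Cul3 at 0.50 and the ubiquitin ligase Trip12 at 0.53. The median of this log2 range was 1.09 over the 26 members with a mean of at least 0.1 counts per 10000 and 0.99 over the 8137 genes above that filter, so the panel median was close to that of other genes. Members lay at both ends of the order of all these genes, with Myt1l at percentile 99.3 and Tcf4 at percentile 96.3, and with Wac at percentile 1.97, Gigyf1 at 3.26, Cul3 at 7.57 and Trip12 at 9.68.

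Myt1l, a zinc finger factor that represses non-neuronal genes in neurons, was highest in the excitatory neuron-like cluster 0, at 4.37 and 4.76 counts per 10000 in the Setd5+/+ libraries and 5.0 and 4.85 in the Setd5+/- libraries. Cluster 10 came next at 3.51 ± 0.815 (SD, n = 4), and WT3, WT6 and Het5 there stayed below every value of cluster 0, while Het9 at 4.71 reached into it. Striatal neuron-like cells followed at 1.54 ± 0.465, migrating interneuron-like cells at 1.34 ± 0.157, and clusters 1 and 5 at 1.10 and 1.07, values that do not differ beyond their spread. Radial glia-like, intermediate progenitor-like and subpallial progenitor-like cells had 0.0465, 0.0528 and 0.0501. Myt1l was thus higher in clusters 0, 4 and 8 than in these 3 progenitor clusters, and at 0.0103 in melanocyte-like cells.

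Tcf4, a basic helix-loop-helix E protein that pairs with proneural factors, was at 21.1 ± 0.514 counts per 10000 in cluster 1, 19.9 ± 0.933 in cluster 0, 19.4 ± 1.53 in cluster 5 and 17.0 ± 0.794 in intermediate progenitor-like cells. Radial glia-like cells held 12.5 ± 1.26, cycling cells 7.44 ± 0.807 and the subpallial progenitor-like cluster 7 4.94 ± 0.340. Striatal neuron-like cells stood lowest of the neural clusters, with 2.18, 1.57, 1.99 and 1.04 in WT3, WT6, Het5 and Het9. The 2 clusters with interneuron or subpallial names were far apart, since migrating interneuron-like cells held 15.9 ± 3.07. In melanocyte-like cells Tcf4 was at 0.370.

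Bcl11a, a zinc finger repressor also known as CTIP1, was highest where Tcf4 was lowest of the neural clusters, in striatal neuron-like cells, at 7.77, 8.66, 6.77 and 6.06 in WT3, WT6, Het5 and Het9, with cluster 0 at 6.41 ± 0.428 and cluster 5 at 5.97 ± 0.319 within reach of that spread. Radial glia-like cells had 1.06 ± 0.0965 and subpallial progenitor-like cells 1.43 ± 0.175. Auts2, a coregulator that works with Polycomb proteins, was at 11.6 ± 1.65 in cluster 10, 10.1 ± 0.740 in cluster 0 and 9.71 ± 0.979 in migrating interneuron-like cells, against 2.43 ± 0.352 in radial glia-like and 2.5 ± 0.210 in subpallial progenitor-like cells. Both genes were therefore higher in every neuron cluster named here than in radial glia-like cells. Ctnnb1, which encodes the Wnt effector beta-catenin, was at 4.36 ± 0.392 in intermediate progenitor-like, 4.10 ± 0.356 in cluster 9 and 3.84 ± 0.257 in radial glia-like cells, and lowest among neural clusters in striatal neuron-like cells at 1.94 ± 0.393. Med13l, a subunit of the Mediator kinase module, and the coregulator Tcf20 had their highest means in striatal neuron-like cells, at 0.960 ± 0.252 and 0.426 ± 0.0734. Cluster 10 lay within that spread, at 0.907 ± 0.507 for Med13l and 0.363 ± 0.162 for Tcf20, and striatal neuron-like cells led in 2 of 4 libraries for Med13l and 3 of 4 for Tcf20. With cells under 3000 UMIs left out and the others thinned to 3000 UMIs, Tcf20 stood at 0.273 in striatal neuron-like cells.

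**Figure D2:**
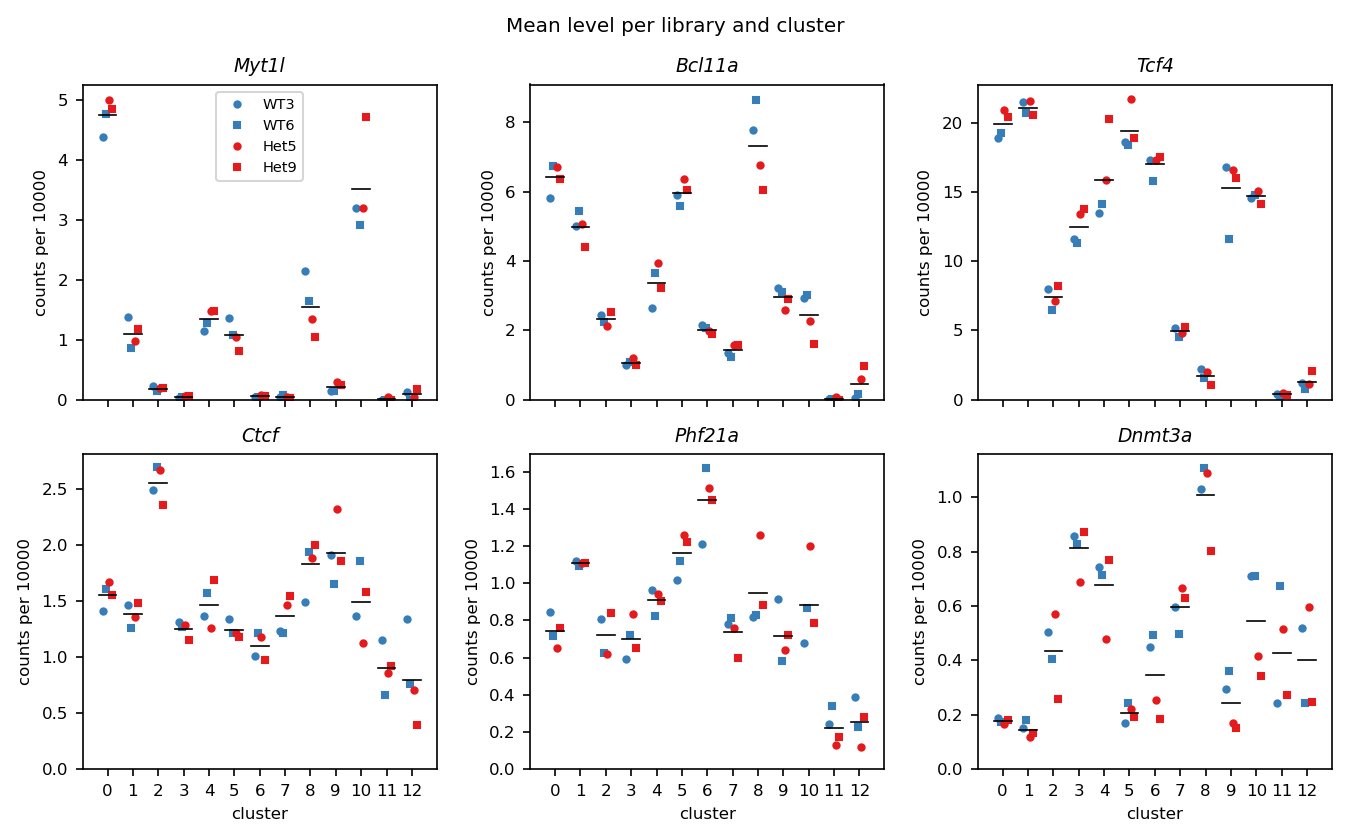
Mean counts per 10000 of Myt1l, Bcl11a, Tcf4, Ctcf, Phf21a and Dnmt3a in clusters 0 to 12 (x axis), with 1 point per library (blue WT3 and WT6, red Het5 and Het9) and a bar at the mean of the 4. Myt1l peaks in cluster 0, Bcl11a in cluster 8 where Tcf4 is at 1.70, and Ctcf in cluster 2.

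Among the chromatin genes, Ctcf, the zinc finger protein that anchors chromatin loops, was highest in the cycling cluster 2, at 2.49, 2.70, 2.67 and 2.36 in WT3, WT6, Het5 and Het9. Every library there lay above every library of cluster 9, which also held cycling markers and was next at 1.93 ± 0.278. The lowest neural cluster was the intermediate progenitor-like one at 1.10 ± 0.117. Phf21a, a reader of the CoREST repressor complex, was highest in intermediate progenitor-like cells, at 1.21, 1.62, 1.51 and 1.45, in the same order of libraries. That cluster led in 4 of 4 libraries, although the highest library of cluster 5 (1.26) passed the lowest one there (1.21). Chd8, Chd2, Pogz and Ankrd11 were flatter, with a highest neural cluster 1.56 to 1.95 times the lowest one. Arid1b ran from 0.165 ± 0.0603 in subpallial progenitor-like cells to 0.506 ± 0.0827 in striatal neuron-like cells, with cluster 10 within the spread at 0.417 ± 0.288.

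Both histone demethylases were higher in excitatory neuron-like, migrating interneuron-like and striatal neuron-like cells than in radial glia-like and cycling cells. Kdm5b was at 2.35, 2.44 and 2.33 in these 3 clusters, between 2.29 and 2.56 in the unnamed clusters 1, 5 and 10, 1.14 ± 0.233 in the unnamed cluster 9, and 1.95 ± 0.248 in intermediate progenitor-like cells, against 0.785 ± 0.00343 in cycling, 0.795 ± 0.118 in subpallial progenitor-like and 0.943 ± 0.0969 in radial glia-like cells. Kdm6b was at 1.87 ± 0.250 in cluster 5 and 1.86 ± 0.167 in migrating interneuron-like cells, at 1.16 ± 0.111 in intermediate progenitor-like cells, and at 0.630 ± 0.102 in radial glia-like cells. Dnmt3a, the de novo DNA methyltransferase, followed another order, with 1.01 ± 0.140 in striatal neuron-like, 0.812 ± 0.0842 in radial glia-like and 0.677 ± 0.134 in migrating interneuron-like cells, and only 0.177 ± 0.0102 in cluster 0 and 0.145 ± 0.0268 in cluster 1. Dnmt3a shares its locus with the antisense gene Dnmt3aos. Of the 10 members that overlap another gene of the table, only Tcf20 overlaps one on its own strand. The strand setting of the counting is not given in the sources used here. Whether reads of the overlapping genes entered these levels was therefore not tested.

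The signalling, ubiquitin and RNA genes ranged from nearly level (Wac and Gigyf1) to more varied than most genes (Tnrc6b, percentile 75.2 by log2 range). Dyrk1a, a kinase of neural growth, ran from 0.223 in subpallial progenitor-like to 0.379 in cycling cells. Tsc1 and Tsc2, which together restrain mTOR, were highest of the neural clusters in cluster 10 (0.502 ± 0.193) and in striatal neuron-like cells (0.277 ± 0.119). Each of these led in 2 of 4 libraries, and Tsc1 in cluster 10 was at 0.305 with cells thinned to 3000 UMIs. Nf1, which switches off Ras, was at 0.487 ± 0.0457 in cluster 10. In melanocyte-like cells it was at 0.565 ± 0.0445, but 145 of those 147 cells carry barcodes that occur in more than 1 library. That SD therefore cannot be read as a spread over fetuses. Tnrc6b, a partner of Argonaute in microRNA silencing, ran from 0.371 ± 0.140 in cluster 7 to 1.27 ± 0.180 in cluster 10. Wac stayed between 1.35 and 1.77 over all neural clusters.

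Counted over the 26 members, the highest neural cluster was the striatal neuron-like cluster 8 for 8 members, where 10.1% of all 8137 genes had theirs, and cluster 10 for 7 members, against 1626 of the 8137 genes. None was highest in radial glia-like cells, where 16.8% of all genes were. Cluster 8 had a median of 3650.5 UMIs per cell and cluster 10 of 4263, below the 5599.5 of cluster 0, and cluster 10 held 150 cells. Each member counted for cluster 8 or 10 led there in 1 to 3 of 4 libraries, and of all 30 members only Myt1l, Phf21a and Ctcf had 1 highest cluster in 4 of 4. With cells under 3000 UMIs left out and the others thinned to 3000 UMIs, 20 of the 30 members kept their highest cluster, and 8 did at a lower resolution with 6 clusters.

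Levels in 4 pairs of related clusters were also compared within each library. From the subpallial progenitor-like cluster 7, in which S phase markers were high, to striatal neuron-like cells, 18 members were higher in 4 of 4 libraries and 2, Tcf4 and Ctnnb1, were lower in 4 of 4, while 26.3% of all genes were higher and 22.4% lower by that count. The median log2 difference was 0.53 over the members and 0.05 over all genes. From radial glia-like to excitatory neuron-like cells, 12 members were higher and 3 (Dnmt3a, Ctnnb1 and Wac) lower in 4 of 4 libraries, against 34.5% and 34.7% of all genes, with medians of 0.30 and 0.00. Kdm5b, Kdm6b, Bcl11a, Myt1l and Auts2 were among the 12, with log2 differences of 1.23, 1.17, 2.48, 5.05 and 2.02. From subpallial progenitor-like to migrating interneuron-like cells, 14 members were higher and 1, Ctnnb1, lower in 4 of 4 libraries, against 29.8% and 22.4% of all genes, with medians of 0.35 and 0.09. From radial glia-like to intermediate progenitor-like cells, 10 members were higher and 5 (Ankrd11, Ctcf, Dnmt3a, Wac and Nf1) lower, against 21.5% and 30.7% of all genes, with medians of 0.16 and -0.06. Tcf4 ran in opposite directions in the pairs that share cluster 7, at log2 1.66 ± 0.23 (higher in 4 of 4 libraries) towards migrating interneuron-like cells and -1.53 ± 0.48 towards striatal neuron-like cells. From radial glia-like to excitatory neuron-like cells it was higher by log2 0.67 ± 0.087. Across the 11 neural clusters, the profiles most alike among members were those of Arid1b and Med13l (Pearson r = 0.95), and the most unlike were those of Dnmt3a and Tcf4 (r = -0.70), both a description over clusters that share libraries and depth.

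The 4 members under the filter were Adnp, Shank2, Katnal2 and Shank3, with 169, 167, 155 and 25 UMIs in all 6562 cells. Katnal2, a katanin-like protein of microtubule severing, had 45 of its UMIs in radial glia-like cells (0.0846 ± 0.0333 counts per 10000) and 37 in cycling cells (0.0716 ± 0.0167), but 2 in the 1150 excitatory neuron-like cells. Shank2, a scaffold of the postsynaptic density, had 16 UMIs in striatal neuron-like cells (0.117 ± 0.0391) and 30 in the larger cluster 0 (0.0430 ± 0.0134). For Shank3, its better known relative, at most 5 UMIs fell in any cluster, and no order of clusters can be read at this depth. Adnp, which joins chromatin remodelling complexes, was at 0.0246 to 0.0691 over clusters 0 to 10. Its highest value, 0.0815 in cluster 11, where 145 of 147 cells carry shared barcodes, was 0.0269 with cells thinned to 3000 UMIs.

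Between genotypes, no member passed the test over all cells. Of the 26 members tested, 0 passed limma with Benjamini-Hochberg adjustment over 8137 genes (lowest adjusted p = 0.994), where 0.0860% of all genes did: Setd5, Isl1, and the sex-linked Xist, Tsix, Ddx3y, Eif2s3y and Kdm5d. At an unadjusted p under 0.05 there were 2 members, Dnmt3a and Tcf4, against 4.34% of all genes. The genotypes did not overlap for 9 members, 3 higher and 6 lower in Setd5+/-, against 32.0% of all genes. By sign, 13 members were higher and 13 lower, with log2 differences from -0.27 to 0.20 and a median of -0.001, beside -0.002 over all genes. With 2 fetuses against 2, an exact two-sided permutation test could not go below p = 0.33.

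What these libraries limit is the size of a change. Every 95% interval of the 26 members lay between -0.48 and 0.45 on the scale of log2(mean + 0.1), and all 26 left out the log2 difference of -0.89 that Setd5 had. Half-widths ran from 0.12 to 0.27. With the added 0.1 taken off again, the lowest bound was 62.4% of the Setd5+/+ level (Dyrk1a) and the highest 140% (Myt1l). The values rest on 134 to 15989 UMIs of a member in a library.

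**Figure D3:**
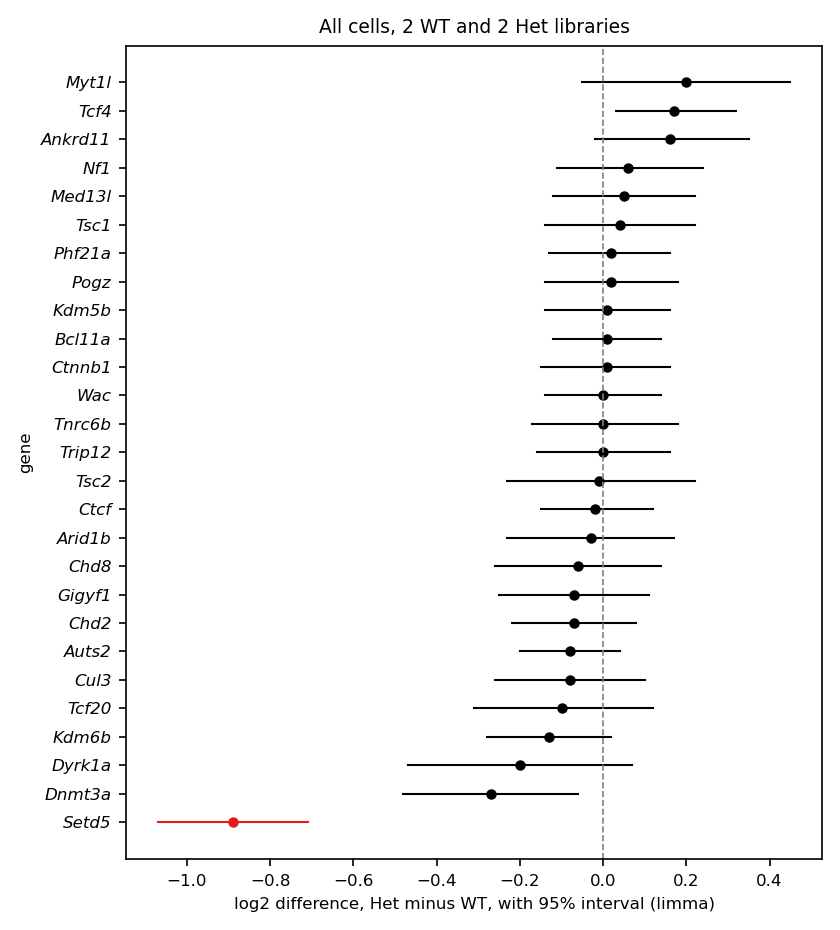
Log2 difference, Setd5+/- minus Setd5+/+, of mean counts per 10000 + 0.1 over all cells (x axis) for the 26 tested members and Setd5 (y axis), with points at the limma estimate and lines for its 95% interval (2 libraries per genotype). Setd5, in red, lies at -0.89, and every member interval lies between -0.48 and 0.45.

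The values by library show what lies behind the lowest p-values. Dnmt3a was at 0.432 in WT3, 0.505 in WT6, 0.391 in Het5 and 0.350 in Het9. Both Setd5+/- fetuses were lower, by a log2 difference of -0.27 (limma adjusted p = 0.994, unadjusted 0.0195). When each library was given the same share of every cluster, the levels were 0.451, 0.448, 0.403 and 0.378 and the log2 difference -0.17, still without overlap. Tcf4 was at 14.1, 12.7, 15.2 and 15.1 in the same order, higher in both Setd5+/- fetuses by 0.17 (log2, limma adjusted p = 0.994, unadjusted 0.0227), and by 0.12 with equal shares. Leaving out 1 library moved Dnmt3a from -0.18 (without WT6) to -0.36 (without WT3) and Tcf4 from 0.10 to 0.25 without the same libraries.

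Myt1l gave the highest estimate, with 1.46, 1.21, 1.41 and 1.68 in WT3, WT6, Het5 and Het9 (log2 0.20, limma adjusted p = 0.994), and the genotypes overlapped. The excitatory neuron-like cluster made up 17.5%, 12.9%, 18.0% and 23.1% of the cells of these libraries, the same order as the Myt1l levels apart from WT3 and Het5. With equal shares of every cluster Myt1l was at 1.45, 1.38, 1.46 and 1.47, a log2 difference of 0.04. Over all cells, its log2 difference was 0.07 without WT6, 0.08 without Het9, 0.32 without Het5 and 0.33 without WT3. Ankrd11, a chromatin regulator, was at 2.71, 3.16, 3.37 and 3.20 (log2 0.16, limma adjusted p = 0.994), and the log2 difference was 0.06 without WT3 and 0.27 without WT6. Dyrk1a was at 0.316, 0.263, 0.270 and 0.208 (log2 -0.20, limma adjusted p = 0.994), with WT6 below Het5. Without 1 library its log2 difference was -0.07 (Het9), -0.10 (WT3), -0.30 (WT6) or -0.34 (Het5). Kdm6b at 1.48, 1.37, 1.28 and 1.30 and Auts2 at 6.96, 6.60, 6.41 and 6.39 were lower in both Setd5+/- fetuses, by 0.13 and 0.08 on the log2 scale. The log2 difference ran from -0.08 without WT3 to -0.19 without WT6 for Kdm6b, and from -0.04 to -0.12 without the same libraries for Auts2. Other members were nearly level across the 4 libraries, among them Ctcf between 1.49 and 1.55, Wac between 1.46 and 1.52, Trip12 between 0.458 and 0.487 and Bcl11a between 3.75 and 3.97.

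Within single clusters no member passed the test either. Over 13 clusters, 328 pairs of a member and a cluster were tested, in which 0 were called (lowest adjusted p = 0.261), against 0.0957% of all 98238 gene and cluster pairs. An unadjusted p under 0.05 was reached by 23 pairs, 11 higher and 12 lower in Setd5+/-, where 2.43% of all pairs were higher and 2.57% lower by that rule. These counts include 44 member pairs of clusters 11 and 12, in which 145 of 147 and 94 of 132 cells carry barcodes that occur in more than 1 library. In cluster 11 Setd5 itself was at 0.962 and 1.14 in Setd5+/+ and 1.19 and 1.24 in Setd5+/-, not lower in Setd5+/-, so the member pairs of cluster 11 cannot be read as a comparison of genotypes. In cluster 12 Setd5 had 9 UMIs in all, too few for that check. In clusters 0 to 10 alone, 0 of 284 member pairs were called and 21 had an unadjusted p under 0.05 (7.39%), against 0.112% and 5.08% of 84219 gene and cluster pairs. In radial glia-like cells, Tcf4 was at 11.6 and 11.3 in Setd5+/+ and 13.4 and 13.8 in Setd5+/- (log2 0.25, limma adjusted p = 0.261), and in migrating interneuron-like cells at 13.5 and 14.1 against 15.9 and 20.3 (log2 0.38, adjusted p = 0.654, and log2 0.20 without Het9). Of clusters 0 to 10, it was higher in Setd5+/- in 8 and lower in 2. Dnmt3a in intermediate progenitor-like cells was at 0.450 and 0.495 against 0.256 and 0.183 (log2 -0.85, limma adjusted p = 0.781), and lower in 9 of clusters 0 to 10.

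In striatal neuron-like cells, which made up 3.22% to 8.14% of a library, Myt1l was at 2.14 and 1.64 in Setd5+/+ against 1.34 and 1.05 in Setd5+/- (log2 -0.62, limma adjusted p = 0.753), and Bcl11a at 7.77 and 8.66 against 6.77 and 6.06 (log2 -0.35, adjusted p = 0.838). With cells thinned to 3000 UMIs the Myt1l log2 difference there was -0.11. Ankrd11 was higher in Setd5+/- in 10 of clusters 0 to 10 and lower in 1, with log2 differences from -0.10 to 0.34 and a lowest adjusted p of 0.831. The clusters share fetuses, so such counts over clusters are not independent.

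**Figure D4:**
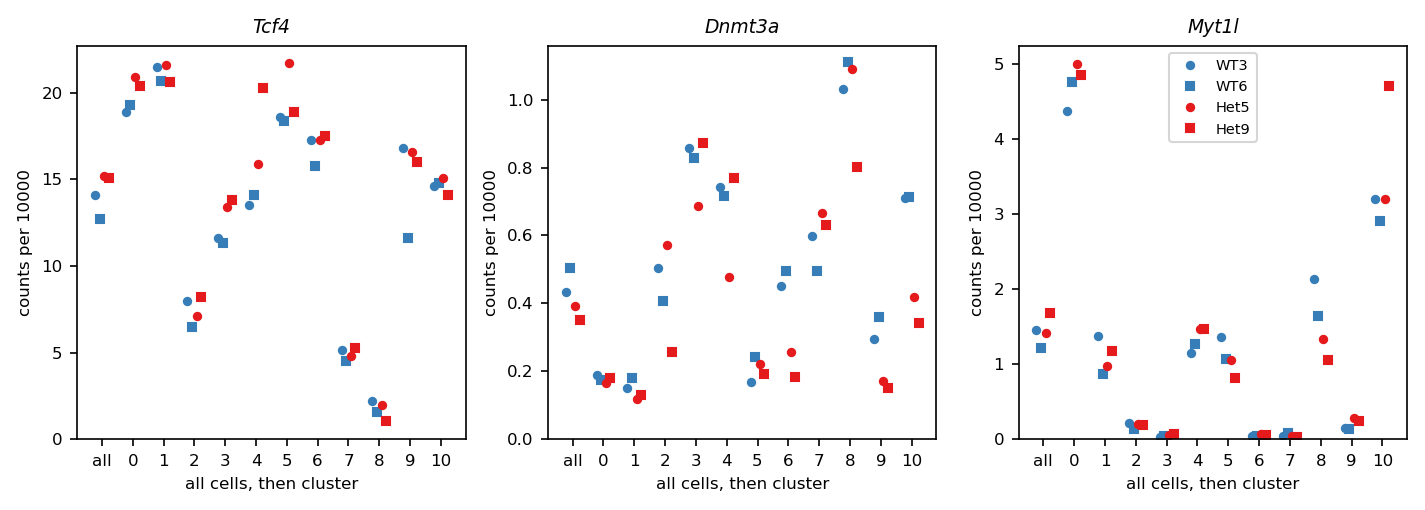
Mean counts per 10000 of Tcf4, Dnmt3a and Myt1l over all cells (first position) and in clusters 0 to 10 (x axis), with 1 point per library, blue for Setd5+/+ and red for Setd5+/-. Tcf4 cluster means run from 1.70 to 21.1, and its genotype means over all cells are 13.4 and 15.2.

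Whether a genotype difference was larger in one cluster than in the other cells was tested directly. Of the same 328 pairs, 0 were called (lowest limma adjusted p = 0.810) and 15 had an unadjusted p under 0.05, against 0.00204% and 5.31% of all pairs. In clusters 0 to 10 alone, 0 of 284 member pairs were called and 13 had an unadjusted p under 0.05 (4.58%), where 0 and 5.24% of all pairs did. No cell type was thus shown to hold a change of a member that the others lack.

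The wider families gave no call over all cells either. In all, 180 further genes were listed as partners of the members (subunits of BAF, NuRD, CoREST, cohesin and the Mediator kinase module, DNA methylation and Polycomb genes, E and Id proteins, Wnt, mTOR, Ras, cullin and katanin genes, RNA silencing factors and postsynaptic scaffolds) or as other disorder genes, and 167 passed the filter. In that test 0 rose and 0 fell by limma, with 11 (6.59%) at an unadjusted p under 0.05, beside the 4.34% of all genes, and a median log2 difference of -0.014. Among the partner lists, the 25 BAF genes had a median log2 difference of -0.045 over 23 tested, the 10 cohesin genes -0.034 and the 10 mTOR genes -0.004 over 9 tested. The lowest adjusted p belonged to 2 X-linked histone demethylases, named after their values were seen. Kdm6a was at 0.236 and 0.219 against 0.139 and 0.146 (log2 -0.43, limma adjusted p = 0.333), and Kdm5c at 0.462 and 0.373 against 0.288 and 0.275 (log2 -0.43, adjusted p = 0.578). Both are known to escape X inactivation, and here sex and genotype cannot be told apart. Within clusters, 0 of 1981 pairs of a listed gene and a cluster were called, but 7 without the library Het5 and 4 without WT6. These are 0.353% and 0.202% of the pairs, where 0.338% and 0.230% of all gene and cluster pairs were called.

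A few partners differed between cell types, and were likewise picked after their values were seen. Actl6b, the neuronal actin-like subunit of BAF, was at 1.31 ± 0.126 in cluster 0, 1.54 ± 0.437 in cluster 8 and 1.98 ± 0.272 in cluster 10, against 0.0354 ± 0.0202 in radial glia-like cells. Its progenitor counterpart Actl6a was at 2.53 ± 0.103 in cycling cells and 1.28 ± 0.152 in cluster 0. Uhrf1, which guides the maintenance methyltransferase, was at 2.16 ± 0.348 in cluster 7 and 1.19 ± 0.218 in cycling cells but 0.0711 ± 0.0776 in cluster 8, where Dnmt3a was highest.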

How the data were processed

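Single-cell RNA-Seq libraries of 4 fetuses, 2 per genotype, were analysed. The authors aligned reads to mm10 with Cell Ranger 2.1 and normalised with Seurat 2.3.0 per the submitters' processing notes, while the annotation, strand use and cell limits they applied were not given in the sources used here. In the deposited table, made by the authors, each value is a natural log, that of 1 plus a cell's counts scaled to 10000 UMIs. All 14848520 values above 0 gave whole UMIs (within 0.001) when taken out of the log and divided by the lowest value of the cell. Each cell name starts with a library prefix that shows its genotype but no replicate number of the labels.

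For each library, or library and cluster, the mean counts per 10000 was taken. limma 3.58.1 (R 4.3.3) with a variance trend was fitted to log2(mean + 0.1), which understates changes of low genes, for genes averaging 0.1 or more over the 4 libraries. A cluster needed 20 or more cells from each library. Adjustment was by Benjamini-Hochberg over the genes of each fit, with a threshold of 0.05. The p-values measure the spread between fetuses, 2 per group. Clusters came from 2000 variable genes, 20 principal components, 20 neighbours and Leiden at the lowest resolution closest to the 14 clusters of the study, without the listed genes. The 44 doublets marked by Scrublet (0.671% of cells) were kept. The plan named a count model only for a file of raw counts. The file holds log values, so limma was used, and no count model was fitted to the recovered UMIs. Alternatives were other pseudocounts, no filter, summed UMIs with 2 scalings, thinning, removal of doublets or of shared barcodes, equal composition, other resolutions and each library left out. Thinning dropped the cells under 3000 UMIs, 103 to 169 per library, and cut the others to 3000. It thus changes both the depth and the cells counted. The method was tested on simulated data.

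The members and gene lists were chosen with earlier results of these data known. All 30 members are named, other listed genes only if called, and genes outside this rule were named after their values were seen. Sequences are those of the RefSeq promoter table (GRCm38.p6) and positions those of GENCODE M21 (GRCm38). Python 3.11.15 with scanpy 1.11.5, leidenalg 0.10.2 and igraph 0.11.9 was used. Bulk RNA-Seq was not analysed here.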

Additional observations from a re-analysis of the deposited data

How the results depend on the processing

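No member was called over all cells, within clusters or in the difference between clusters under any of the alternatives run, with lowest adjusted p-values of 0.383 (Tcf4, without WT3), 0.133 and 0.310 in the 3 fits. The Setd5 log2 difference stayed between -0.99 and -0.44 (the latter at a pseudocount of 1) and past the threshold, and the signs of Dnmt3a (-0.36 to -0.10) and Tcf4 (0.10 to 0.25) did not turn. Listed genes that are no members had 0 calls over all cells under every alternative, but 0 to 7 pairs of a gene and a cluster were called when 1 library was left out, 7 without Het5 and 4 without WT6, and the cause was not tested. Over all genes, calls in all cells numbered 7, with 11 at equal composition, 12 without WT3 and 34 without Het5. Calls within clusters numbered 94, with 59 at the lower resolution, 163 without WT3, 226 without WT6 and 332 without Het5. Calls of the difference numbered 2, with 17 at a pseudocount of 1, 25 without Het5, 5 without Het9, 1 without WT3 and 0 at a pseudocount of 0.01, with no filter, or over clusters 0 to 10 alone, a count added after seeing the data. Of the 30 members, 8 kept their highest cluster at the lower resolution, which has 6 clusters, and 20 to 29 under the other alternatives (22 to 26 without 1 library). Levels in the highest cluster moved by over 1 SD for 8 of 29 members when cells were thinned to 3000 UMIs, by over 1.5 times for Adnp (0.0815 to 0.0269), Trip12 (0.719 to 0.431), Tsc1 (0.502 to 0.305) and Tcf20 (0.426 to 0.273), and for 0 of 30 without doublets and 0 of 25 without shared barcodes (the other 5 members were highest in cluster 11 or 12, too small then to be ranked). No paired analysis was possible because the cell names carry no replicate number of the labels. With 2 fetuses per genotype, changes smaller than the intervals given could not be seen, and intervals of members in small clusters are wider still.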
